A study of Mus musculus with 3 samples.

Results

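The regions described here are CUT&RUN peaks of the transcription factor Atoh7 in the interior of genes of short and moderate length in the embryonic mouse retina. In CUT&RUN an antibody brings a nuclease to a chromatin protein, and the DNA released around that protein is sequenced. The libraries came from C57Bl6/J retina at embryonic day 14, 2 with an antibody to Atoh7 and 1 with control IgG, with no genetic change, treatment or number of animals named in the labels. One deposited list of 3668 peaks on mm10 was analysed, and 678 of them were chosen by position alone (18.5% of the 3662 that lay on chromosomes 1 to 19 or X, with a 95% Wilson interval from 17.3 to 19.8%). Each of the 678 had its midpoint inside a RefSeq protein-coding gene, in no protein-coding gene of 200 kb or longer, and more than 5 kb from every end of a protein-coding or long noncoding RNA (lncRNA) gene. The list gives a position and a width per peak but no height and no value per library. The names of all 3662 peaks on these chromosomes hold R1, and no label says how the second Atoh7 library or IgG entered the list, so it may rest on replicate 1 alone. Depth is therefore unknown, no comparison of the replicates was possible, and IgG was not analysed here. Which values differ beyond the spread between animals was not tested, and all intervals cover counting error only.

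Atoh7 acts in neurogenic progenitors of the retina, the cells about to leave the cell cycle, and is best known as the factor that retinal ganglion cells need in order to form. Atoh7 belongs to the basic helix-loop-helix (bHLH) proteins. Like other tissue-restricted ones it pairs with an E-protein, and the dimer reads a short DNA motif called the E-box. Sequence inside genes can hold enhancers and internal start sites, so a peak there may lie next to an alternative promoter of the same gene. The gene table used here gives neither exons nor introns.

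Some of these peaks lay at start sites inside their own host gene, and those are the peaks whose sequence could be read. RefSeq start windows (GRCm38.p6, 250 bases before to 50 after a start) were met by 35 of the 663 peaks on chromosomes with listed starts (5.28%). A host start was listed for 532 pairs of peak and host, so some of the 663 had no start of their own host to meet. The start base itself lay in 25 of the 35 peaks. These 35 met 40 windows, all belonging to the host gene, and in 27 of the 40 the peak was centred before the start. A window reaches 250 bases before the start and just 50 after it, which by itself favours peaks centred before the start. Whether 27 of 40 goes beyond that was not tested. The following 7 stretches are the bases shared by such a peak and the 250 bases before the start, 5′ to 3′ on the strand of the gene. They were chosen after their values were seen, to show peaks at starts with several E-boxes and a peak with none. Every stretch shown with an E-box holds the form CAGCTG, though just 13 of the nearest start windows of the 35 peaks did. The stretches of Acot11, with 4 E-boxes, and of Bcar1 and Zc3h12c, with 3 each, hold no CAGCTG and are not shown. Capitals mark every CANNTG E-box.
Elavl4, chr4:110287528-110287777, minus strand: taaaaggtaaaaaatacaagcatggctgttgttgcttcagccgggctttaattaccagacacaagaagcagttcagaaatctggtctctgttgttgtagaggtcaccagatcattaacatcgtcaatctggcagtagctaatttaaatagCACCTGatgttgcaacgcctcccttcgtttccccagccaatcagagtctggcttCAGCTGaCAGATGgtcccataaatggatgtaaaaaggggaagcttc
Cbx5, chr15:103215353-103215602, minus strand: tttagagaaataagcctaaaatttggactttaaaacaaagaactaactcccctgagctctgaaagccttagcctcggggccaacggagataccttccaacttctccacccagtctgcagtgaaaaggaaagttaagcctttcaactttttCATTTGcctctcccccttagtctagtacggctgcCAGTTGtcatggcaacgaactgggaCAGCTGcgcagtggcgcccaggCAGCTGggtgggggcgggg
Nfe2l1, chr11:96824128-96824360, minus strand: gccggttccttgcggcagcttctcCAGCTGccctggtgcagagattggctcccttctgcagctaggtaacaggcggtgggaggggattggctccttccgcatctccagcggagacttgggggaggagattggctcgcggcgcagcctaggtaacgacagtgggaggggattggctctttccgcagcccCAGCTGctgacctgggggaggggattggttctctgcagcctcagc
Mad2l2, chr4:148140240-148140443, plus strand: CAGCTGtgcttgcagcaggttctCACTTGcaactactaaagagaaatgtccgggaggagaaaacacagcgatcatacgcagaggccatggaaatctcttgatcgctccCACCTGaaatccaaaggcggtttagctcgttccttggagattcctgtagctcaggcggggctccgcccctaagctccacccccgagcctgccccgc
Galk2, chr2:125865973-125866222, plus strand: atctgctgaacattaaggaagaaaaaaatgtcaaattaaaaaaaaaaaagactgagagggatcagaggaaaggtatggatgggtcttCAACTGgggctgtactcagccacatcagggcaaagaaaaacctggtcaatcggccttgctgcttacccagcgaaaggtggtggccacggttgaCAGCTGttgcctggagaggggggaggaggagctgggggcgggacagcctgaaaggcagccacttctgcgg
Clasp2, chr9:113793080-113793298, plus strand: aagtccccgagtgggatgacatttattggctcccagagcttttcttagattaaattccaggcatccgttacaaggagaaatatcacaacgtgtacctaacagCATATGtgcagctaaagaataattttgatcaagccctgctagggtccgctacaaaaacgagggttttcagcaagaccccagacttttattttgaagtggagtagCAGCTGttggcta
Taok1, chr11:77607816-77608065, minus strand: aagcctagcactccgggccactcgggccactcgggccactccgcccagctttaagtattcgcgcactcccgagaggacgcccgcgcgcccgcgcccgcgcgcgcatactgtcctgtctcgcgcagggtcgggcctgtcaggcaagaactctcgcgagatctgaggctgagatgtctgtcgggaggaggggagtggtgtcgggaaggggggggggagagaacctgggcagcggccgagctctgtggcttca

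Elavl4 encodes a neuronal RNA-binding protein that marks early ganglion cells among other neurons, and its 476 bp peak held 3 E-boxes before the start. The first is of the form CACCTG, and the others, a CAGCTG followed by a CAGATG, are separated by a single base. A second Elavl4 peak of 278 bp lay at 110292455 to 110292732, 5066 bp from that start. Cbx5, the gene of the heterochromatin protein HP1 alpha, had 4 E-boxes in the 250 bases shown, among them a pair of CAGCTG. Nfe2l1 encodes a stress-response transcription factor, and its peak held CAGCTG at 2 places. Mad2l2, a DNA repair gene, and Galk2, a sugar kinase gene, had 1 CAGCTG each beside other forms. Clasp2, whose product binds growing microtubule ends, had peaks near a pair of its 3 listed starts, centred 267 and 283 bp before them. Taok1, a kinase gene, had a peak over its listed start with no CANNTG in the 250 bases. Rbpj, through which activated Notch reaches DNA, had a peak of 372 bp centred 46 bp after an internal start.

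The E-box search covered, on both strands, the 10 forms of CANNTG that differ after reverse complement. Besides the 4 forms treated next, these were CAAATG (in 7 of the nearest start windows of the 35 peaks and in 13.8% of all start windows), CAACTG (in 6 and in 13.6%), CAAGTG (in 4 and in 13.5%), CACATG (in 1 and in 14.2%), CACGTG (in 3 and in 7.20%) and CATATG (in 2 and in 3.82%). Sites could share bases with each other, and no 2 forms count the same letters. Counting the nearest start window of each of the 35 peaks, 26 windows held some CANNTG (74.3%), against 72.3% of all 32619 start windows of 300 bases. CAGCTG was in 13 of the 35 windows (37.1%, 95% Wilson interval 23.2 to 53.7%). It was in 16.4% of all start windows, in 19.4% of the 1495 start windows that lay in the same kind of sequence but met no peak, and in 27.3% of the 858 windows met by other Atoh7 peaks. CAGATG was in 5 of the 35 (14.3%) and in 17.1% of all windows, and CACCTG in 8 (22.9%) and 20.3%. CAATTG was in none of the 35, where a count of 0 allows a share of up to 8.57%, and in 3.84% of all windows. A match may lie in the part of the window outside the peak. The median GC content of these 35 windows was 61.0%, against 52.7% in start windows of the same kind of sequence without a peak and 63.0% in windows met by other peaks. CpG dinucleotides moved with it, with medians of 19, 6 and 24 per window. The part of base composition in the E-box shares was not tested, nor was any difference between these shares.

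Peaks were densest close to internal starts. For hosts with a listed strand (443 of the 565 host genes, 532 pairs of peak and host), 32 peaks were centred within 250 bp of a listed start of their own host, in 0.697 Mb of sequence (45.9 peaks per Mb, 95% Poisson interval 31.4 to 64.8). From 250 bp to 1 kb there were 15 peaks (7.59 per Mb), from 1 to 5 kb 24 peaks (2.11 per Mb), and beyond 5 kb 461 peaks (1.43 per Mb, 1.30 to 1.57). Peaks at internal starts were thus dense but few. Of the peaks with a listed host, 86.7% lay 5 kb or more from any start of it. That compares with 95.8% of the sequence that meets the rule in genes with a listed start. The start table is not complete, so some of the peaks beyond 5 kb may lie at starts it does not list. Of the 1535 start windows in this kind of sequence, 2.61% were met by a peak, against 2.76% of the other 31084 start windows in the table. Along the host gene from 5′ to 3′ the density showed no gradient of that size. With each gene cut into 5 parts of equal length, the first part stood at 1.77 peaks per Mb. The next 3 stood at 1.63, 1.60 and 1.39 and the last at 1.63, with intervals that all overlapped. Of the 532 pairs, 289 lay nearer the 5′ end (54.3%, 95% Wilson interval 50.1 to 58.5%), against 50.1% of the sequence that meets the rule. The rule keeps out 5 kb at each end of a gene, so the outer parts are less complete. The peaks were a median of 33.5 kb from the 5′ end (quartiles 16.5 and 64.2 kb) and 36.3 kb from the 3′ end. The lowest value was 1.09 peaks per Mb (0.798 to 1.45), 5 to 10 kb from the 3′ end, where 46 peaks lay, against 1.70 (1.33 to 2.14) at the same distance from the 5′ end, where 72 lay.

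**Figure D1:**
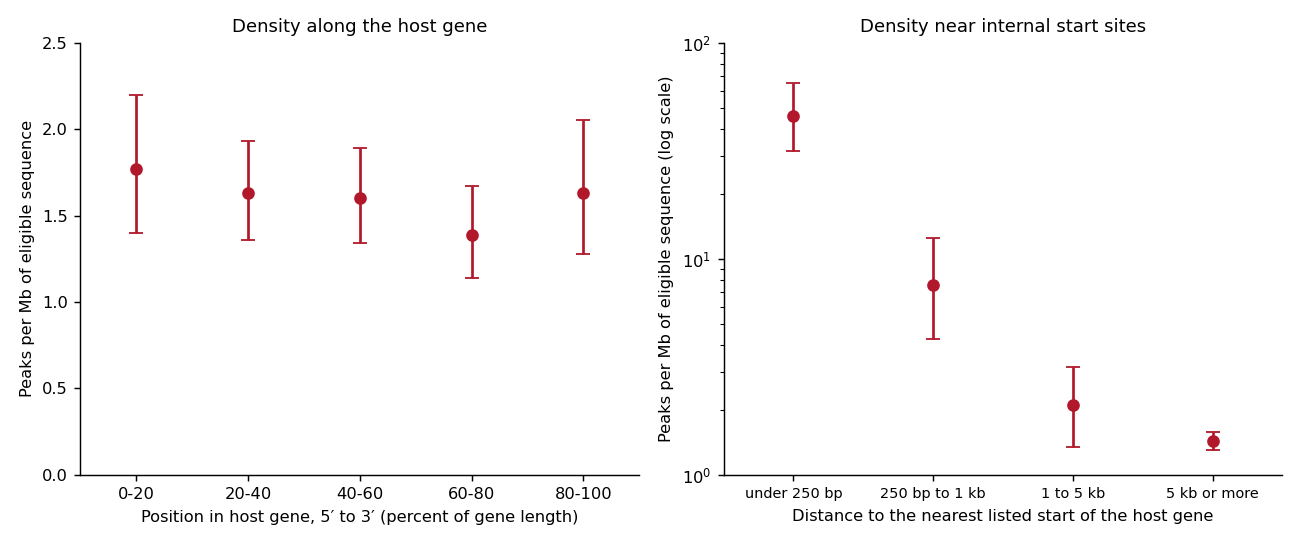
Peaks per Mb of sequence that meets the rule, by position in the host gene from 5′ to 3′ (left) and by distance to the nearest listed start of the host (right, log scale). Points are densities and bars 95% Poisson intervals, over 532 pairs of peak and host. The left panel stays between 1.39 and 1.77, while the right panel goes from 45.9 within 250 bp of a start to 1.43 beyond 5 kb.

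Over the whole genome the sequence that meets the rule came to 420.3 Mb, so the 678 peaks stood at 1.61 per Mb (95% Poisson interval 1.49 to 1.74). Deep inside genes of 200 kb or longer, with the same distance from gene ends, 522 peaks in 390.3 Mb gave 1.34 per Mb (1.23 to 1.46). Outside protein-coding genes and away from gene ends, 930 peaks gave 0.706 per Mb (0.662 to 0.753), and within 5 kb of a protein-coding or lncRNA gene end 1532 peaks gave 3.16 per Mb (upper bound 3.32). The intervals of these 4 classes did not overlap. No test between the classes was run. Widths overlapped almost wholly. The peaks inside genes under 200 kb had a median width of 385.5 bp (quartiles 270 and 489.8, narrowest 177, widest 1252). The 95% interval of the median was 366 to 400 bp. The medians of the other 3 classes were 373.5 bp near gene ends, 377.5 bp deep inside long genes and 393 bp outside genes. The peaks covered 273.1 kb in total, and no 2 of the 3662 peaks overlapped.

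**Figure D2:**
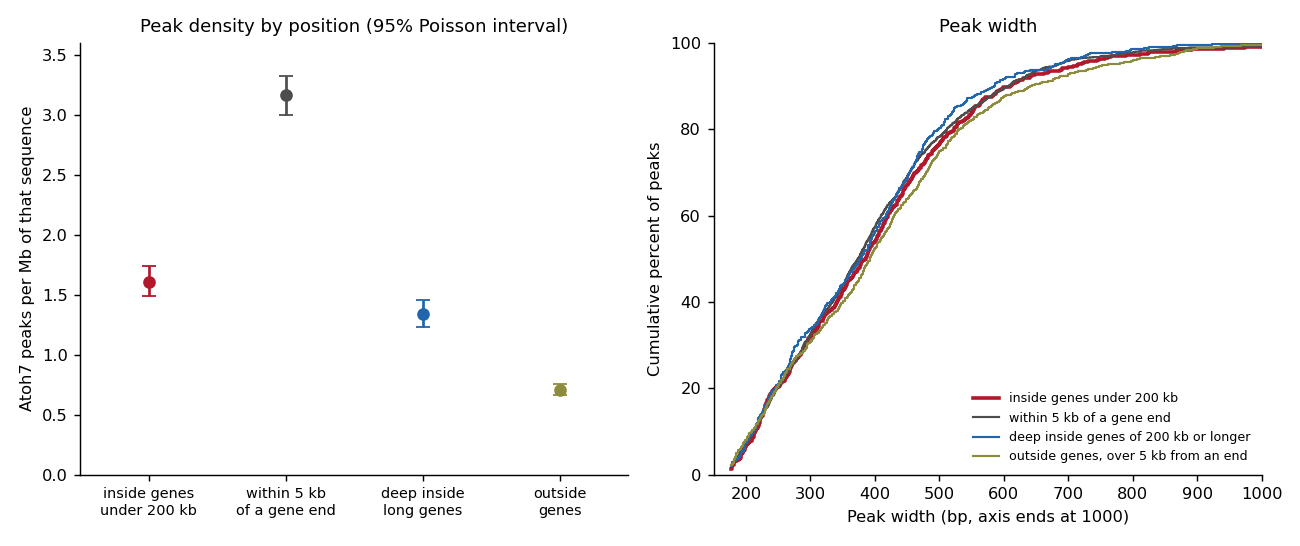
Left, Atoh7 peaks per Mb in 4 classes of sequence, with 95% Poisson intervals, and right, the cumulative percent of peaks by width in bp. Peaks inside genes under 200 kb stand at 1.61 per Mb, between the values near gene ends (3.16) and outside genes (0.706), and the 4 width curves run close together.

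Across chromosomes the density ranged from 0.163 peaks per Mb on chromosome X, with 3 peaks in 18.4 Mb (95% Poisson interval 0.0337 to 0.477), to 2.76 on chromosome 4, with 73 peaks in 26.5 Mb (2.16 to 3.46). Chromosome 2 held the most, 81 peaks at 2.27 per Mb. Chromosome 14 was the lowest autosome, with 13 peaks at 0.864 per Mb (0.460 to 1.48), so the interval of chromosome X overlapped that of chromosome 14 only at its upper edge. The whole list has 37 peaks on chromosome X. The labels do not give the sex of the embryos, and the part of X copy number in this value was not tested.

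The 678 peaks lay in 565 genes, of which 477 held 1 peak, 69 held 2 and 19 held 3 or more. A midpoint lay in a pair of genes for 4 peaks, and these count for both. A gene was called eligible when it was protein-coding, shorter than 200 kb and held at least 1 base that meets the rule. There were 12498 such genes, and 4.52% of them held a peak. Longer genes offer more sequence, and holding a peak tracked it. Of the 4 equal groups of eligible genes by length of eligible sequence, 0.672% of the shortest, 1.76% and 4.13% of the next 2 and 11.5% of the longest held a peak, while the density per Mb stayed between 1.42 and 1.95. Host genes had a median length of 80.5 kb, against 31.2 kb for all eligible genes. For that reason each gene list below is described by peaks per Mb of its eligible sequence (1.61 over all eligible genes) beside the share of its genes with a peak (4.52%). The lists were chosen with earlier results of these data known, so their high values are a description and not independent evidence. The 514 different eligible genes of the 21 lists held 103 peaks (4.13 per Mb), and the remaining eligible genes stood at 1.46 per Mb.

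**Figure D3:**
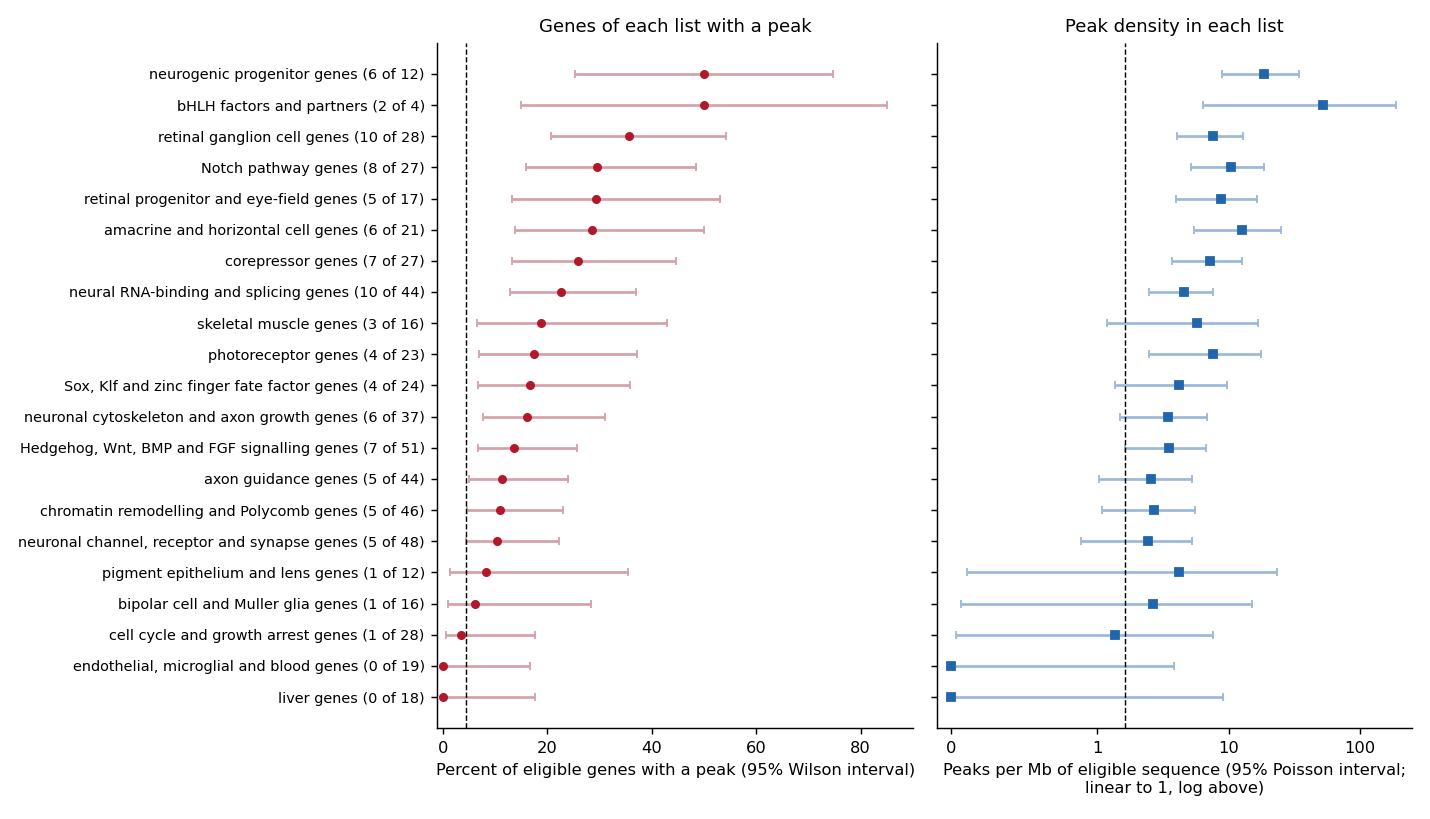
For each gene list, the percent of eligible genes with a peak (left, 95% Wilson intervals) and the peaks per Mb of their eligible sequence (right, 95% Poisson intervals, linear to 1 and log above). Labels give genes with a peak of eligible genes, and dashed lines mark all eligible genes (4.52% and 1.61 per Mb). Neurogenic progenitor genes lie far to the right with 6 of 12, and the liver and the endothelial, microglial and blood lists are at 0.

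The lists of bHLH factors and partners and of neurogenic progenitor genes had the highest densities, the former on 2 peaks. Of 34 neurogenic genes, 12 were eligible, and the others held no base that meets the rule. A peak lay in 6 of the 12 (50%), and their 10 peaks in 0.541 Mb made 18.5 per Mb (95% Poisson interval 8.87 to 34.0). Srrm4, which controls neuronal microexon splicing, held peaks of 747 and 506 bp, centred 22.7 and 21.2 kb from its 5′ end (chromosome 5, 116569519 to 116570265 and 116571087 to 116571592). The corepressor genes Cbfa2t2 and Cbfa2t3 held 2 peaks each, the widest of 691 and 461 bp. Ebf3, a helix-loop-helix factor of ganglion and amacrine cells, held peaks of 583 and 300 bp, 5.30 and 33.1 kb from its 5′ end. Foxn4, a forkhead gene of amacrine and horizontal fate, held a 488 bp peak at 114264046 to 114264533 on chromosome 5, 10.1 kb from each end of a 20.3 kb gene. Of the 37 bHLH factors and partners just 4 were eligible, and 2 held a peak (50%, or 25% with the wider 50% of peaks). These 2 peaks in 0.0383 Mb made 52.2 per Mb, with an interval from 6.32 to 188.7. Both hosts encode bHLH factors themselves, Atoh8 (549 bp, chromosome 6, 72216511 to 72217059) one of the same family as Atoh7 and Heyl (322 bp) a Notch-responsive repressor.

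Notch pathway genes with peaks ranged from ligands to the nuclear partner of the receptor. Of 27 eligible genes 8 held a peak (29.6%), and 11 peaks in 1.06 Mb made 10.4 per Mb (5.18 to 18.6). The share was 17.4% more than 10 kb from gene ends, where all eligible genes stood at 4.76%. With the wider 50% of peaks the share was 11.1%, where all eligible genes stood at 2.41%. Among the ligand genes, Jag1 held a 410 bp peak 15.2 kb from its 5′ end and Jag2 a 414 bp peak 7.09 kb from its own. The receptor gene Notch1 held 1 of 243 bp, 16.1 kb from its 5′ end (chromosome 2, 26487619 to 26487861). Psen2 and Ncstn encode parts of gamma-secretase, which cuts the receptor, and held peaks of 319 and 297 bp. Fbxw7, whose product marks active Notch for breakdown, held 1 of 552 bp. Rbpj held 4 peaks of 349, 372, 186 and 281 bp on chromosome 5, in 13.2 kb. The first 3 were centred 33.5, 34.8 and 35.5 kb from the 5′ end of the 101.7 kb gene, around the internal start described above, and the last 46.7 kb from it.

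Corepressors held peaks in 7 of 27 eligible genes (25.9%, 12 peaks, 7.18 per Mb, 3.71 to 12.5). These included Cbfa2t2 and Cbfa2t3, with 2 peaks each, which were also counted in the neurogenic list. Tle3, a Groucho corepressor of the kind that Hes proteins recruit, held peaks of 451 and 211 bp centred 5.74 and 6.20 kb from its 5′ end and another of 310 bp at 24.4 kb. Tle4, with 566 bp, and Tle1, with 228 bp, held 1 each, as did Bcor, with 427 bp. Chromatin remodelling and Polycomb genes were nearer to the background, with 5 of 46 (10.9%, 7 peaks, 2.70 per Mb, 1.09 to 5.57). Chd7, a remodeller gene mutated in CHARGE syndrome, held 3 peaks of 395, 479 and 460 bp spread over 99.8 kb. Arid1a, a subunit of the BAF remodelling complex, held 1 of 615 bp, Smarcc1, another subunit of it, 1 of 418 bp, and the DNA methyltransferase gene Dnmt3a 1 of 229 bp.

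Among retinal progenitor and eye-field genes 5 of 17 held a peak (29.4%, 9 peaks, 8.68 per Mb, 3.97 to 16.5). More than 10 kb from gene ends the share was 14.3%, where all eligible genes stood at 4.76%. Msi1, a progenitor RNA-binding protein gene, held peaks of 1166 and 443 bp on chromosome 5 at 115436321 to 115437486 and 115434961 to 115435403. Meis1, an eye-field homeobox gene of 139.2 kb, held 4 peaks of 480 to 585 bp, all in the 3′ portion of the gene, centred 74.5, 83.9, 102.7 and 112.4 kb from its 5′ end. Lin28b, whose product holds back differentiation, held 1 of 483 bp. Bipolar cell and Muller glia genes held a peak in 1 of 16 eligible members (6.25%, 2.67 per Mb, 0.0676 to 14.9).

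Ganglion cell genes held peaks in 10 of 28 eligible members (35.7%, 13 peaks, 7.56 per Mb, 4.02 to 12.9). Rbpms, the pan-ganglion-cell RNA-binding gene, held 1 of 878 bp on chromosome 8 at 33799705 to 33800582. Ebf2 held peaks of 561 and 198 bp beside those of its relative Ebf3. Gap43, a growth cone protein gene, held 1 of 253 bp and Elavl3, a relative of Elavl4, 1 of 336 bp, 16.5 kb from its 5′ end. Amacrine and horizontal cell genes held peaks in 6 of 21 (28.6%, 8 peaks, 12.6 per Mb, 5.45 to 24.9). Besides Ebf2, Ebf3 and Foxn4 these were Slc6a9, the glycine transporter gene of glycinergic amacrine cells (457 bp), Cntn2 (437 bp) and Chat, which makes acetylcholine (177 bp). A width of 177 bp is the smallest in every class of peaks. Photoreceptor genes held peaks in 4 of 23 (17.4%, 5 peaks, 7.60 per Mb, 2.47 to 17.7). Casz1, a zinc finger factor of retinal progenitors and rods, held 2 of 610 and 421 bp, Prom1, a gene of photoreceptor discs, 1 of 552 bp, Rorb, a nuclear receptor, 1 of 447 bp and Mef2d 1 of 201 bp.

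RNA-binding and splicing genes of neurons held peaks in 10 of 44 members (22.7%, 14 peaks, 4.54 per Mb, 2.48 to 7.61), among them those of Msi1, Rbpms and Srrm4 described above. Cytoskeleton and axon growth genes held peaks in 6 of 37 (16.2%, 3.45 per Mb, 1.49 to 6.79). The widest were in the actin regulator gene Coro2b (641 bp), Kif26a (640 bp), Map6, which binds microtubules (400 bp), and Gap43. Axon guidance genes held peaks in 5 of 44 (11.4%, 7 peaks, 2.57 per Mb, 1.03 to 5.29), an interval that takes in the background. Slit1, a secreted repellent gene, held 3 of these peaks, of 341, 406 and 514 bp, Draxin 1 of 522 bp, Ntn4 1 of 406 bp and Plxna2, a semaphorin receptor gene, 1 of 395 bp. Of the 63 guidance genes 18 were 200 kb or longer and could not hold a peak of this kind. Channel, receptor and synapse genes held peaks in 5 of 48 (10.4%, 2.41 per Mb, 0.885 to 5.25), among them Syt2, a vesicle calcium sensor gene (892 bp), Cacna2d2 (434 bp) and Cacna1i (347 bp).

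Signalling genes of the Hedgehog, Wnt, BMP and FGF pathways held peaks in 7 of 51 (13.7%, 9 peaks, 3.51 per Mb, 1.61 to 6.67). Sufu, the Hedgehog inhibitor gene, held peaks of 699 and 260 bp. Lgr4, a receptor gene of the Wnt pathway, held 2 of up to 552 bp, Lrp5 1 of 502 bp and Ski 1 of 495 bp. Named outside the rule, the Hedgehog receptor gene Ptch1 held 1 of 264 bp. Sox, Klf and zinc finger factor genes held peaks in 4 of 24 (16.7%, 4.17 per Mb, 1.35 to 9.72), these being Zeb2 (619 bp), Casz1, Klf7 (488 bp) and Myt1 (203 bp). Cell cycle and growth arrest genes held a peak in 1 of 28 (3.57%, 1.36 per Mb, 0.0344 to 7.58), namely Ccnd3, a cyclin gene, with 363 bp.

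Of the 4 lists for other tissues, 2 held no peak and the others stood above the background on few peaks. None of 19 endothelial, microglial and blood genes (a count of 0 allows up to 15.8%) and none of 18 liver genes (up to 16.7%) held one. Their eligible sequence was 0.965 and 0.405 Mb, so at 1.61 per Mb few peaks could be seen there. Skeletal muscle genes held peaks in 3 of 16 (18.8%, 5.76 per Mb, 1.19 to 16.8), these being Mef2c (272 bp), Tnnt1 (234 bp) and Pax7 (198 bp). Pigment epithelium and lens genes held 1 in 12 (8.33%, 4.18 per Mb, 0.106 to 23.3), in the lens filament gene Bfsp1 (296 bp). Neither interval of density excludes 1.61 per Mb. In all, 18 of 21 lists stood above 1.61 per Mb, the muscle list among them, and for 9 lists the lower bound of the interval lay above it. The lists share genes, so all of these 9 but the photoreceptor list rest partly on peaks of another of the 9. Every neurogenic gene with a peak was in another of them. Cbfa2t2 and Cbfa2t3 counted in the neurogenic and corepressor lists, and Ebf3 in the neurogenic, ganglion cell and amacrine lists. Foxn4 was shared with the amacrine list, Myt1 with the ganglion cell list and Srrm4 with the RNA-binding list. Heyl counted in the bHLH and Notch lists, and Msi1 and Lin28b in the eye-field and RNA-binding lists. With such shared genes, the shared selection of lists, long genes and several peaks in some genes, the intervals are no test of the lists.

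The 19 genes with 3 or more peaks held 64 of the 678. Cwc22, a splicing factor gene of 65.2 kb, led with 9 peaks of 194 to 513 bp in 46.9 kb (163.1 per Mb of its eligible sequence). Numbers in the names of the peaks run along the genome, and in Cwc22 28.9% of the 38 numbers spanned by its peaks were present. The share was 100% in 15 of the other 18 genes, but their peaks spanned just 3 to 7 numbers. The first and last number of a span are always present, so these shares cannot be compared with that of Cwc22. Names in the list reach numbers well above its 3662 peaks, so numbers are absent elsewhere too. No label says why numbers are absent, and the part of such filtering in the Cwc22 count was not tested. Next came Clmp, a cell adhesion gene, Nkain1, Meis1 and Rbpj with 4 peaks each. Nkain1 is short, at 44.1 kb, so its peaks of 260, 420, 690 and 554 bp made 117.4 per Mb. Hcn4, a pacemaker channel gene of 40.2 kb, held peaks of 667, 377 and 421 bp in 5.25 kb (99.3 per Mb), and Tle3 reached 82.9 per Mb. Cemip2 and Plekha6 also held 3 peaks within a short stretch, of 5.16 and 6.71 kb. In Chd7, Ttc29 and Ston2 the 3 peaks lay far apart, over 99.8, 94.4 and 69.6 kb. The remaining genes with 3 were Prkcz, an atypical protein kinase C gene, Epb41, a membrane skeleton gene, Slit1, Nol4l, Trak1, a mitochondrial transport adaptor gene, and Macrod1 with Flrt1. Flrt1 lies inside Macrod1, and both were counted for the same 3 peaks. Over all genes with several peaks the median gap between neighbours was 13.6 kb (quartiles 4.04 and 29.7), and 21 of 114 gaps were under 2 kb.

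**Figure D4:**
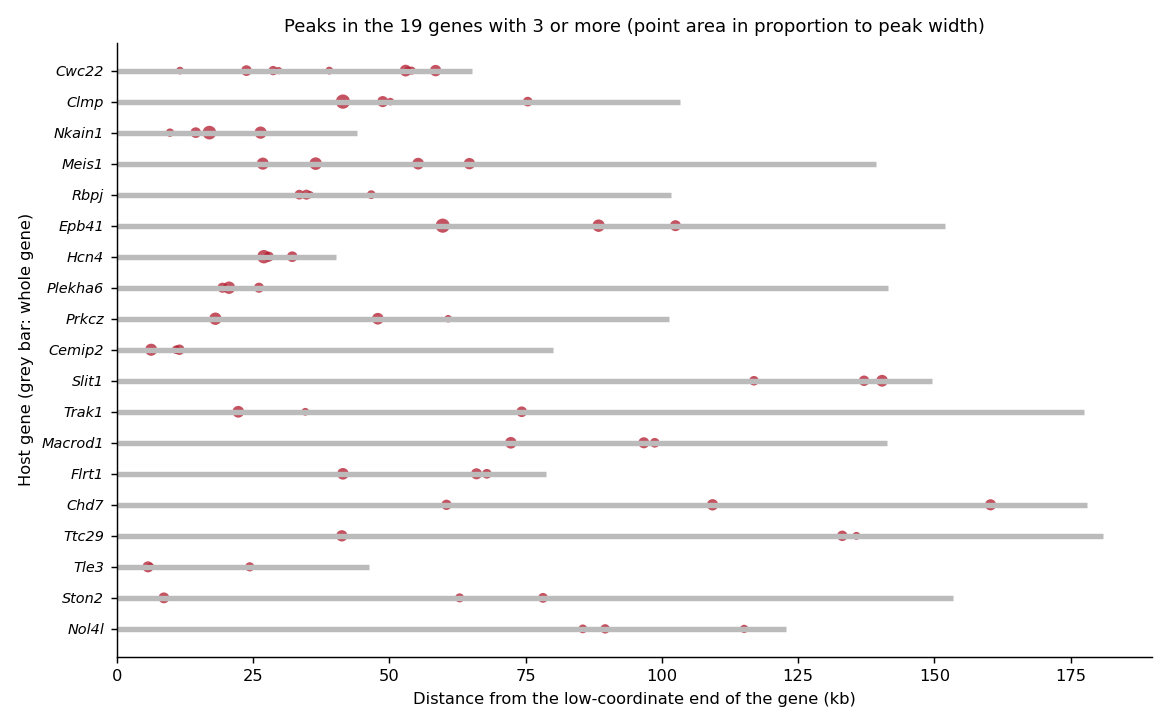
Positions of peaks in the 19 genes with 3 or more, as kb from the low-coordinate end of each gene (grey bars show whole genes, and point area is in proportion to peak width). Cwc22 has 9 peaks along a 65.2 kb gene, the peaks of Hcn4, Plekha6 and Cemip2 sit close together, and those of Chd7 and Ttc29 are spread over more than 90 kb.

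The widest of the 678 peaks was 1252 bp, in Fam83f (chromosome 15, 80684679 to 80685930), followed by 1186 bp in Ankdd1a (chromosome 9, 65514287 to 65515472) and by Msi1. Tspan9, a tetraspanin gene, held 1 of 1130 bp, and Capzb, which caps actin filaments, 1 of 1047 bp at 139246114 to 139247160 on chromosome 4, 45.2 kb from the nearest end. Hosts of the peaks that followed, of 1019 to 827 bp, included Tspan15, Shb, Fbxw4, Tmem104, Syt2, Rbpms, Sipa1l3, Cerkl and Ccdc85c. Of the 100 widest peaks of the whole list, 19 belonged here, close to the 18.5% of peaks in general. Width is not a measure of occupancy.

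A few peaks overlapped a further annotated gene inside the host. Peaks met 15 lncRNA genes, 2 small nuclear RNA genes, 1 pseudogene and 1 other RNA gene. Both small nuclear RNA genes, Rnu3b3 and Rnu3b4, encode U3 RNA, which is used in ribosomal RNA processing, and lie in Tex14, under peaks of 792 and 630 bp (chromosome 11, 87448757 to 87449548 and 87462409 to 87463038). Whether reads are shared between these U3 gene copies was not tested, and both peaks are given as uncertain. The nested RNA gene 4930404H24Rik in Nol4l lay under 2 peaks, of 287 and 326 bp.

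At the borders of the rule the peaks just inside were in Acot11, Bcar1 and Psen2, 5.02 to 5.05 kb from a gene end. Just outside were those in Srf at 5 kb, Epha2 at 4.95 kb and Cwc22 at 4.89 kb. By gene length the last hosts inside were Atp9b (199.9 kb), Morc1 (199.7 kb) and Sipa1l3 (198.8 kb), and the first outside were Pcbp3 (200.3 kb), Pbx3 (200.6 kb) and Tspear (200.9 kb). Widths on either side ran from 189 to 731 bp.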

How the data were processed

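CUT&RUN was done by the authors on mouse retina with an Atoh7 antibody (2 libraries) or IgG (1 library). The submitters' processing notes name the mm10 build and MACS2 2.2.7.1, bedtools, Bowtie2 2.3.5, Picard 2.0.1 and SAMtools, with no order or settings. The deposited list holds chromosome, start, end, width in bp (coordinates from 1) and name, and its filtering is not described. The 5 kb, 200 kb and midpoint rules were applied with a RefSeq gene table and start windows of GRCm38.p6, the assembly of mm10. No genome sequence was used, so the planned E-box search of whole peaks was not run, and start windows took its place, chosen once the data had been seen. A start window lists strand for 10000 of 12498 eligible genes. All but 1 of 831 list symbols were found as protein-coding.

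Densities divide peaks by the length of sequence that meets the same rule between the first and last gene or peak of each chromosome. Assembly gaps stayed in. Intervals are 95% Wilson, exact Poisson or, for a median, from the binomial. A limit for a count of 0 is 3 counts of the total. Named genes were hosts of 3 or more peaks, of the 15 widest peaks, up to 4 genes per list by width, and hosts of the 3 peaks just inside each threshold. Some genes that this rule names are not reported here, and others were chosen after their values were seen. The members and lists were chosen with earlier results of these data known. No test was run, since a single list has no replicates. The scripts were tested on simulated data, where 0 of 300 peaks in each of 5 toy genomes were misplaced. Calculations ran in Python 3.11.15 with pandas 2.3.3, scipy 1.17.1 and numpy 2.4.6, and plots in matplotlib 3.10.9.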

Additional observations from a re-analysis of the deposited data

How the results depend on the processing

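Of 140 values recomputed under the 5 alternatives, 128 stayed within their interval (or within 1.5 times for a count). The alternatives were the ends of every annotated gene kind, more than 10 kb from gene ends, both peak edges meeting the rule, the wider 50% of peaks, and peaks within 2 kb counted once. Keeping peaks wider than 381 bp left 342 peaks, 0.814 per Mb, 2.41% of eligible genes with a peak, 12.3% of those with 2 or more, and a median width of 489 bp, which follows from using fewer and wider peaks. With 10 kb the median distance to the nearest end of the host was 25.8 kb in place of 18.8 kb, as the rule sets it. The number of lists above all eligible genes stayed at 18 under 4 alternatives and was 16 with the wider 50%. Of 105 list values 6 left their interval and 13 differed from the reported one by more than 1.5 times. With 10 kb all eligible genes stood at 4.76%. The neurogenic list was then at 75%, the Notch list at 17.4% and the eye-field list at 14.3%. The lens list was at 16.7%, the cell cycle list at 7.14% and the bipolar and Muller glia list at 0. The 10 kb setting removes both peaks and eligible genes, so the share of a list can rise with no added peak. With the wider 50% the Notch list was at 11.1%, the bHLH list at 25%, the cytoskeleton list at 8.11%, the chromatin list at 6.52%, the channel list at 6.25%, and the cell cycle, muscle and lens lists were at 0. No paired analysis was possible because the list holds no value per library. The planned E-box alternatives were not run, as they need the sequence of whole peaks. Depth is unknown.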
